A study of Glycine max with 12 samples.

Results

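Soybean seeds that overexpress either of the zinc finger genes GmZF351 and GmZF392 shared 38 genes whose transcripts were scarcer than in wild-type seeds and in seeds that overexpress GmNFYA, out of 47095 genes in the deposited table. The named genes among the 38 are SWEET5 and SWEET16, from a family of sugar transporters, the vegetative storage protein gene VSPA and the early light-induced protein gene ELIP. The genes were chosen from the levels themselves, in CPM (a gene's count divided by the library's total count, per 1000000 counts). With 0.05 CPM added to each mean, both zinc finger means had to be at least 1.5-fold below the wild-type mean and the GmNFYA mean, and GmNFYA had to lie within 1.5-fold of the wild type. The wild-type mean had to reach 2 CPM, and each of the 6 zinc finger libraries had to be below each of the 6 others. The distances from the wild type and from GmNFYA seeds are therefore a description of how the genes were chosen, and they were not tested as a finding.

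The groups were seeds of transgenic soybean overexpressing GmZF351, GmZF392 or GmNFYA and seeds of the wild type, which is the cultivar Jack, with 3 libraries each. All seeds were at a stage labelled H3, whose meaning the labels do not explain. The labels name no promoter of the transgenes, the libraries of each overexpressor share a line code and so may come from a single line, and nothing says whether replicates came from separate plants. A p-value here thus reflects how far these libraries spread, and part or all of that spread may be technical. Whole seeds mix embryo, endosperm and seed coat, so fewer cells of a type and less RNA per cell cannot be told apart.

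GmZF351 and GmZF392 encode zinc finger proteins of the CCCH type, and GmNFYA is a subunit of the CCAAT-binding nuclear factor Y; all are known as regulators of oil accumulation in soybean seeds. SWEET proteins let sugars pass through membranes down their gradient, and several of them release sucrose from the maternal seed coat toward the embryo. Vegetative storage proteins are relatives of acid phosphatases that hold nitrogen in leaves, stems and pods. Early light-induced proteins sit in thylakoid membranes and are made when greening or strongly lit tissue handles free chlorophyll.

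The libraries held 17809547 to 22652420 counted fragments. Each overexpressed locus was highest in the seeds labelled with it. The locus taken as GmZF351 (Glyma.06G290100) averaged 905 ± 108 CPM in GmZF351 seeds and 18.98 ± 2.35 CPM in wild-type seeds. It was also called higher in GmZF392 than in wild-type seeds, at 40.7 ± 1.4 CPM (log2 fold change 1.09, SE 0.14, edgeR adjusted p = 4.3e-04). GmNFYA seeds had 27.0 ± 2.5 CPM of it, without a call against the wild type. The GmZF392 locus and NF-YA02, given next, were called against the wild type only in their own overexpressor. The locus taken as GmZF392 (Glyma.12G205700) averaged 664 ± 121 CPM in GmZF392 seeds and 71.4 ± 4.1 CPM in wild-type seeds, and NF-YA02 averaged 307 ± 23 CPM in GmNFYA seeds and 42.5 ± 3.2 CPM in wild-type seeds (SD, n = 3 each). Replicate 2 of GmZF351 had the lowest scaling factor (0.884) and the steepest trend with exon length, so values without it are given where they matter. That trend, long minus short genes on the log2 scale, was -0.745. Replicate 1 of GmNFYA had the next steepest, in the opposite direction (0.648). It also lay further from the other GmNFYA libraries (chi-square per gene 25.9 and 30.2) than they did from each other (2.26). Replicate 1 of the wild type lay apart likewise (20.6 and 17.9 against 5.89), as did replicate 3 of GmZF392 (19.8 and 23.4 against 5.43). The largest distance was between replicates 1 and 2 of GmZF351 (42.1). Embryo markers (10 of 14 listed genes in the table) summed to 5835 to 6149 CPM in GmZF351, 6130 to 6851 CPM in GmZF392, 4501 to 5307 CPM in GmNFYA and 2012 to 3069 CPM in wild-type seeds. Seed coat markers (7 of 10 listed genes) summed to 1444 to 1594, 1431 to 1597, 1281 to 1613 and 1847 to 2025 CPM in the same order, and the seed coat gene ANR2 and the embryo gene OLEO1 averaged under 0.5 CPM in every group. Of the tested seed coat genes only LAR1 was called against the wild type, lower in each overexpressor. LAR1 averaged 20.6 ± 2.7, 25.4 ± 3.1, 21.6 ± 3.6 and 182 ± 18 CPM in the same order. ANR1, DFR1, DFR2, ANS2 and ANS3 were not called. A list of 3 heat shock genes kept as a sign of stress summed to 25.2 to 31.9 CPM in GmZF351, 35.5 to 43.7 CPM in GmZF392, 25.4 to 32.2 CPM in GmNFYA and 83.3 to 103 CPM in wild-type seeds. A wider heat shock list with 41 tested genes did not share that distance in its median. Its median log2 fold changes over wild-type seeds were -0.02 in GmZF351, -0.06 in GmZF392 and -0.07 in GmNFYA seeds. In the same order 3, 3 and 6 of its 41 tested genes were called lower, and 1 was called higher in each. Of all tested genes, 1.05%, 0.528% and 0.599% were called lower and 1.13%, 1.67% and 0.966% higher. The embryo sum is carried by abundant genes such as CG-1, P91, P89 and the glycinin genes GY1 and GY2, while the regulators LEC1-A, LEC1-B and ABI3-1 had log2 fold changes of 0.13, 0.12 and 0.07 in GmZF351 over wild-type seeds and 0.01, 0.14 and 0.19 in GmZF392 over wild-type seeds, none of them called. The embryo sum, the seed coat sum and the sum of the 3 heat shock genes set GmNFYA seeds apart from the wild type as well. The 38 genes were instead chosen to lie close in both. A list of 5 vascular and transport genes holds SWEET10, SWEET11, SWEET15, SUT1 and PIN1A. It summed to 157 to 162 CPM in GmZF351 and 149 to 161 CPM in GmZF392 seeds. The sums were 87.1 to 99.0 CPM in GmNFYA and 144 to 159 CPM in wild-type seeds, so only GmNFYA lay apart on the sum. Its SWEET genes were called lower in GmNFYA than in wild-type seeds. SUT1 averaged 15.8 CPM in GmNFYA and 11.6 CPM in wild-type seeds, and PIN1A 25.0 and 25.3 CPM, neither of them called. No marker gene is among the 38, and the part of the markers in the results below was not tested.

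The choice narrowed quickly. Of 28362 genes with a wild-type mean of at least 2 CPM, 1241 were 1.5-fold or more lower in GmZF351 seeds, and 418 of these were also 1.5-fold or more lower in GmZF392 seeds. The comparison with GmNFYA removed most of those and left 65, of which 52 had GmNFYA within 1.5-fold of the wild type and 38 had no overlap between the libraries. The same limits turned round, for genes higher in both zinc finger overexpressors, gave 34 genes. All 38 genes passed the filter on low counts that the tests used.

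Added up, the 38 genes took 255 to 271 CPM in GmZF351 libraries, 353 to 365 CPM in GmZF392 libraries, 636 to 669 CPM in GmNFYA libraries and 628 to 660 CPM in wild-type libraries. VSPA has the highest level of them; without it the sums were 226 to 238, 292 to 309, 522 to 548 and 530 to 553 CPM in the same order. The 3 libraries of each group lay close together on this sum, and the GmZF351 libraries were the lowest in both versions.

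**Figure D1:**
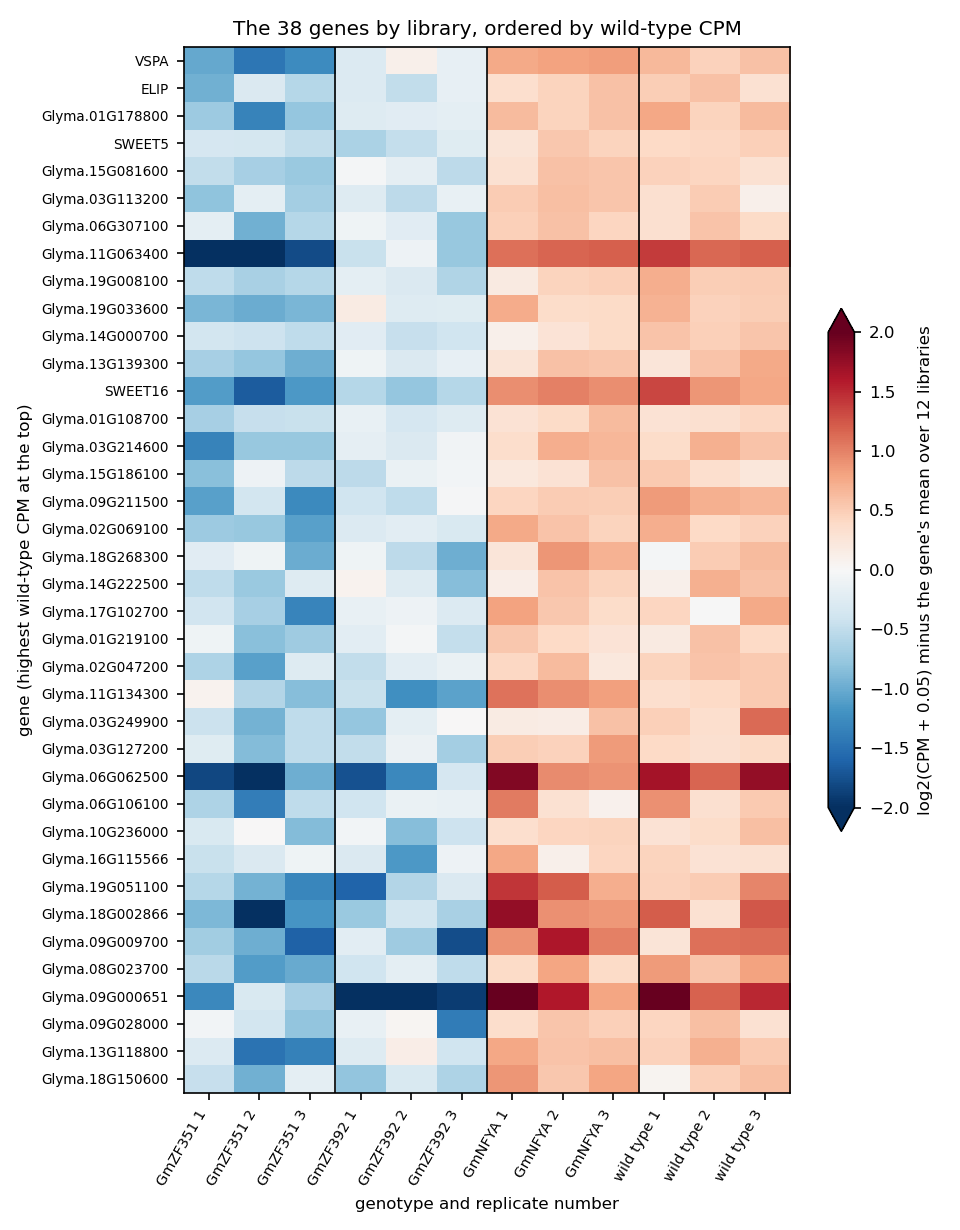
Level of each of the 38 genes in each of the 12 libraries, as log2(CPM + 0.05) minus the gene's mean over the libraries; rows are genes ordered by wild-type CPM, columns are libraries grouped by genotype, blue is below and red above the gene's mean. Columns 1 to 6 (GmZF351, GmZF392) are lower than columns 7 to 12 (GmNFYA, wild type) in every row, which the choice of genes fixes. The colour scale is clipped at both ends, so values beyond an end share its deepest shade. The lowest value is in GmZF392 for Glyma.09G000651, and Glyma.11G063400 is deep blue in all 3 GmZF351 libraries.

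In GmZF351 seeds the genes lay 1.53-fold to 9.21-fold below the wild type, with a median of 2.23-fold, and in GmZF392 seeds 1.51-fold to 24.5-fold below, with a median of 1.77-fold. The upper end in GmZF392 seeds is set by Glyma.09G000651, which had 3 fragments there. A distance of 2-fold or more was reached by 23 genes in GmZF351 seeds, by 10 genes in GmZF392 seeds and by 9 genes in both. A distance of 3-fold or more in both was reached by 5 genes, namely SWEET16, Glyma.11G063400, Glyma.06G062500, Glyma.09G009700 and Glyma.09G000651. In the edgeR fit, 27 of the 38 genes were called lower in GmZF351 seeds and 19 in GmZF392 seeds against the wild type, where the shares of all 34252 tested genes called lower were 1.05% and 0.528%. These counts use the contrasts that chose the genes, and nothing is read from them.

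**Figure D2:**
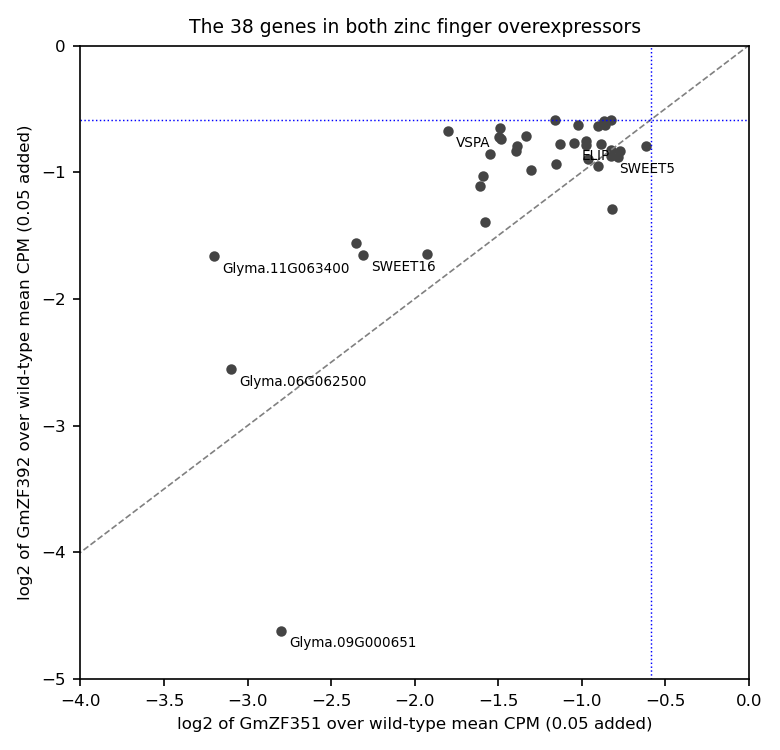
Mean CPM relative to the wild type for the 38 genes, as log2 ratios with 0.05 CPM added, in GmZF351 seeds (horizontal axis) and GmZF392 seeds (vertical axis); each point is a gene, dotted lines mark the 1.5-fold limit and the dashed line marks equal values. Of the 38 points, 30 lie above the dashed line, where GmZF351 is the lower genotype, a share that was not counted over all genes. Glyma.09G000651 is the lowest in GmZF392 seeds.

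The sugar transporters gave a clear pair of cases. SWEET5 (Glyma.04G198500, chromosome 4, 45896868 to 45899911, minus strand) had 27.7, 27.3 and 24.7 CPM in GmZF351 libraries and 22.5, 25.1 and 29.5 CPM in GmZF392 libraries. It had 41.7, 51.0 and 47.6 CPM in GmNFYA libraries and 46.3, 46.8 and 48.4 CPM in wild-type libraries. The zinc finger groups overlapped each other, as did GmNFYA and the wild type. SWEET5 lay 1.77-fold below the wild type in GmZF351 seeds and 1.83-fold below in GmZF392 seeds.

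SWEET16 (Glyma.06G166900, chromosome 6, 13885783 to 13888665, plus strand) had a lower level, at 12.0 CPM per kilobase of exon in wild-type seeds against 33.6 for SWEET5, and lay further below the wild type. It had 3.59, 2.45 and 3.52 CPM in GmZF351 libraries and 5.30, 4.60 and 5.28 CPM in GmZF392 libraries. GmNFYA libraries had 15.1, 15.8 and 14.97 CPM and wild-type libraries 19.9, 14.6 and 13.5 CPM, the first of which was the highest of the 12. The lowest of the GmNFYA and wild-type libraries was 2.55 times the highest zinc finger library, the widest such gap among the 38 genes. SWEET16 lay 4.96-fold below the wild type in GmZF351 seeds and 3.14-fold below in GmZF392 seeds.

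Both genes stand beside other SWEET genes on the same strand, and those neighbours were picked for description after their values were seen. On chromosome 4, SWEET4 ends 7567 bases before SWEET5. SWEET4 averaged 10.2 ± 1.0 CPM in GmZF351, 10.3 ± 2.2 CPM in GmZF392, 6.14 ± 0.23 CPM in GmNFYA and 10.8 ± 1.4 CPM in wild-type seeds (SD, n = 3 each). Its zinc finger libraries overlapped the wild type, and GmNFYA was the low group, the opposite arrangement to SWEET5. Its log2 fold change was 0.78 (SE 0.18) in GmZF351 over GmNFYA seeds and 0.72 (SE 0.18) in GmZF392 over GmNFYA seeds, and neither passed the threshold in edgeR (adjusted p = 0.0661 and 0.108), though DESeq2 called both (0.00983 and 0.0301). In GmNFYA over wild-type seeds SWEET4 was called lower, at the edge of the threshold, with a log2 fold change of -0.79 (SE 0.18, edgeR adjusted p = 0.0497).

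On chromosome 6, SWEET15 lies 17000 bases before SWEET16 and SWEET17 lies 11167 bases after it. SWEET15 had 20.5, 22.8 and 20.2 CPM in GmZF351 libraries, 18.7, 18.98 and 18.4 CPM in GmZF392 libraries, 11.9, 9.41 and 10.7 CPM in GmNFYA libraries and 21.2, 20.3 and 19.7 CPM in wild-type libraries. GmNFYA was again the low group, below every other library. SWEET15 was higher in GmZF351 than in GmNFYA seeds by 1.05 on the log2 scale (SE 0.13, edgeR adjusted p = 0.00121) and higher in GmZF392 than in GmNFYA seeds by 0.78 (SE 0.13, adjusted p = 0.00818, which became 0.0699 without replicate 2 of GmNFYA). Of all tested genes, 0.505% were called higher in GmZF351 than in GmNFYA seeds and 0.8% in GmZF392 than in GmNFYA seeds.

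SWEET17 had 1.86, 1.44 and 1.23 CPM in GmZF351 libraries, 4.24, 4.10 and 3.28 CPM in GmZF392 libraries, 5.81, 6.80 and 5.62 CPM in GmNFYA libraries and 10.8, 8.39 and 9.78 CPM in wild-type libraries. Here none of the 4 groups overlapped, and the order ran from GmZF351 up to the wild type. The steps from GmZF392 to GmNFYA and from GmNFYA to the wild type were not called (edgeR adjusted p = 0.139 and 0.117). Of all tested genes, 21.1% had no overlap between GmNFYA and wild-type libraries. SWEET17 is not among the 38 because its GmNFYA mean lay more than 1.5-fold below the wild type. It was lower in GmZF351 than in GmZF392 seeds, with a log2 fold change of -1.27 (SE 0.21, edgeR adjusted p = 0.0122). That call was lost without replicate 3 of GmZF351 (adjusted p = 0.0846), without replicate 1 (0.0652) or 2 (0.0512) of GmZF392, and with only those groups in the fit (0.184). Neighbouring SWEET genes are close relatives, and their counts depend on how uniquely the fragments aligned.

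**Figure D3:**
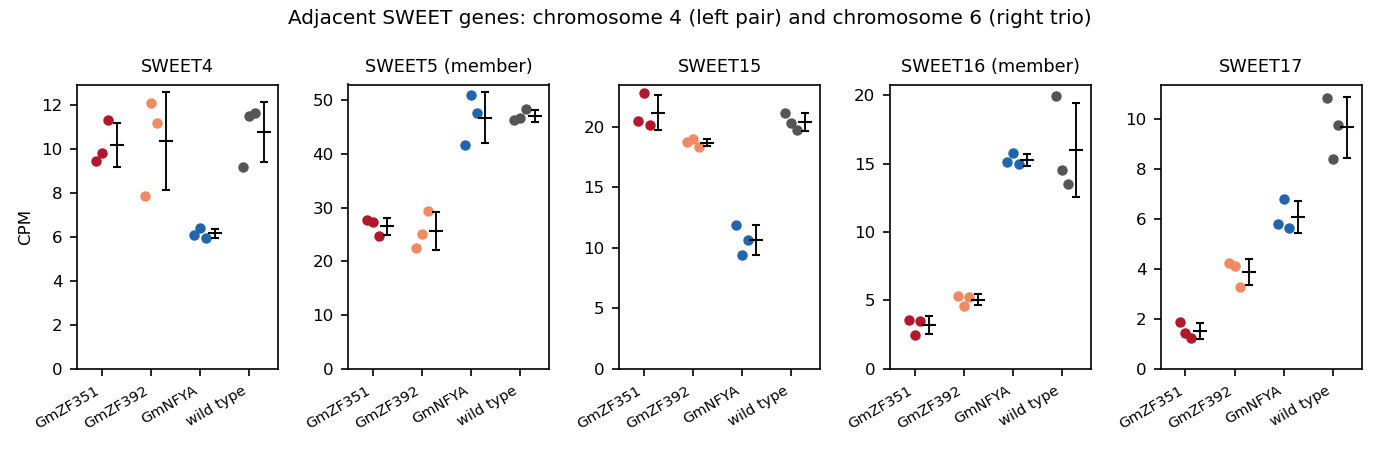
CPM of the adjacent SWEET genes on chromosome 4 (SWEET4, SWEET5) and chromosome 6 (SWEET15, SWEET16, SWEET17); points are libraries, bars are the mean and SD of 3 libraries, and each panel has its own linear axis from 0. SWEET5 and SWEET16 are low in both zinc finger groups, SWEET4 and SWEET15 are lowest in GmNFYA (6.14 and 10.7 CPM), and the 4 groups of SWEET17 do not overlap.

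Among all 38 sugar transporter genes with a symbol in the table, 26 were tested. In GmZF351 over wild-type seeds 3 were called lower (SWEET5, SWEET16 and SWEET17) and 1 higher (SWEET44), and the list's median log2 fold change was -0.01 beside 0.01 over all tested genes. In GmZF392 over wild-type seeds the same 3 genes were called, all lower, with a list median of 0.00 beside -0.01. Against the wild type, GmNFYA seeds had 5 called genes of the list, all lower, with a list median of -0.16 beside -0.01. Besides the neighbours SWEET4 and SWEET15 these were SWEET21 (log2 fold change -2.05), SWEET11 (-1.38) and SWEET10 (-0.94). A low level in GmNFYA seeds was thus not particular to the genes beside SWEET5 and SWEET16. Over all tested genes, 1.05% were called lower in GmZF351, 0.528% in GmZF392 and 0.599% in GmNFYA over wild-type seeds. In GmZF351 seeds 1.13% were called higher. The calls of SWEET5 and SWEET16 are fixed in direction by the choice of genes. SWEET39, another member of the family, was not called in any of these comparisons and averaged 179 ± 17 CPM in GmZF351, 173 ± 15 CPM in GmZF392, 143 ± 8 CPM in GmNFYA and 145 ± 19 CPM in wild-type seeds.

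VSPA (Glyma.07G014500, chromosome 7, 1146429 to 1148063, plus strand) was the most abundant of the 38 genes, also per kilobase of exon, with 89.1 CPM per kilobase in wild-type seeds. It had 33.3, 24.9 and 28.3 CPM in GmZF351 libraries and 56.0, 72.7 and 60.3 CPM in GmZF392 libraries. GmNFYA libraries had 114, 118 and 121 CPM and wild-type libraries 107, 93.1 and 102 CPM. The groups formed 4 steps without overlap, with GmZF351 lowest and GmNFYA highest. The step from the wild type to GmNFYA was not called (edgeR adjusted p = 0.482). The GmZF351 mean lay 3.48-fold below the wild type and the GmZF392 mean 1.59-fold below.

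VSPA was listed together with the lipoxygenases, which oxidize unsaturated fatty acids and include storage-type enzymes of vegetative tissue. Of 8 such genes 7 were tested. Against the wild type, VSPA was the only gene called lower in the zinc finger overexpressors. LOX1.1, LOX2 and LOX3 were called higher in both, beside 1.13% of all tested genes in GmZF351 and 1.67% in GmZF392 seeds. GmNFYA seeds also had LOX2 (log2 fold change 1.66) and LOX3 (1.11) called higher, and LOX9 (-0.73) called lower. The shares of all tested genes called there were 0.966% higher and 0.599% lower. LOX2 averaged 71.6 ± 21.2 CPM in GmZF351, 72.3 ± 17.8 CPM in GmZF392, 40.2 ± 8.0 CPM in GmNFYA and 12.9 ± 1.2 CPM in wild-type seeds (SD, n = 3 each). The median log2 fold change of the list was 0.43 in GmZF351 over wild-type seeds and 0.30 in GmZF392 over wild-type seeds, beside 0.01 and -0.01 over all tested genes. VSPA stood opposite in sign to the lipoxygenases that were called in the zinc finger overexpressors.

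ELIP (Glyma.20G150600, chromosome 20, 38918524 to 38919985, minus strand) was second in level, at 74.8 CPM per kilobase in wild-type seeds. It had 24.5, 39.2 and 32.1 CPM in GmZF351 libraries, 39.4, 34.0 and 42.8 CPM in GmZF392 libraries, 60.3, 64.7 and 71.3 CPM in GmNFYA libraries and 67.5, 71.7 and 58.9 CPM in wild-type libraries. The zinc finger groups overlapped, and so did GmNFYA and the wild type. ELIP lay 2.07-fold below the wild type in GmZF351 seeds and 1.71-fold below in GmZF392 seeds. A list of 6 photosynthesis genes, which does not hold ELIP, had median log2 fold changes of -0.23 in GmZF351 and 0.08 in GmZF392 over wild-type seeds.

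The remaining 34 genes carry no symbol in the table used here, and no role is given for them. Glyma.11G063400 (chromosome 11, 4786347 to 4791109, plus strand) had 2.63, 2.71 and 3.20 CPM in GmZF351 libraries, 8.18, 10.4 and 6.62 CPM in GmZF392 libraries, 24.0, 25.0 and 25.7 CPM in GmNFYA libraries and 29.4, 24.8 and 25.7 CPM in wild-type libraries. GmZF351 was lowest and GmZF392 intermediate, with no overlap, while GmNFYA and the wild type overlapped. The GmZF351 mean lay 9.21-fold below the wild type, the widest distance of the 38 genes in that genotype, and the GmZF392 mean 3.16-fold below.

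Glyma.19G033600 (chromosome 19, 4313720 to 4316849, minus strand) had 7.75, 7.29 and 7.73 CPM in GmZF351 libraries, 16.4, 12.1 and 12.3 CPM in GmZF392 libraries, 24.4, 18.9 and 19.1 CPM in GmNFYA libraries and 23.7, 19.998 and 20.6 CPM in wild-type libraries. Replicate 1 was the highest in GmZF392, in GmNFYA and in the wild type. Its means lay 2.81-fold below the wild type in GmZF351 seeds and 1.57-fold below in GmZF392 seeds.

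Glyma.01G178800 (chromosome 1, 52600161 to 52604942, minus strand) had 24.2, 15.8 and 23.2 CPM in GmZF351 libraries, 33.3, 34.0 and 34.7 CPM in GmZF392 libraries, 62.0, 54.4 and 59.6 CPM in GmNFYA libraries and 68.6, 54.6 and 62.0 CPM in wild-type libraries. Replicate 2 of GmZF351 was its lowest library, and the GmZF392 libraries were close together. Its distances from the wild type were 2.93-fold in GmZF351 seeds and 1.81-fold in GmZF392 seeds.

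**Figure D4:**
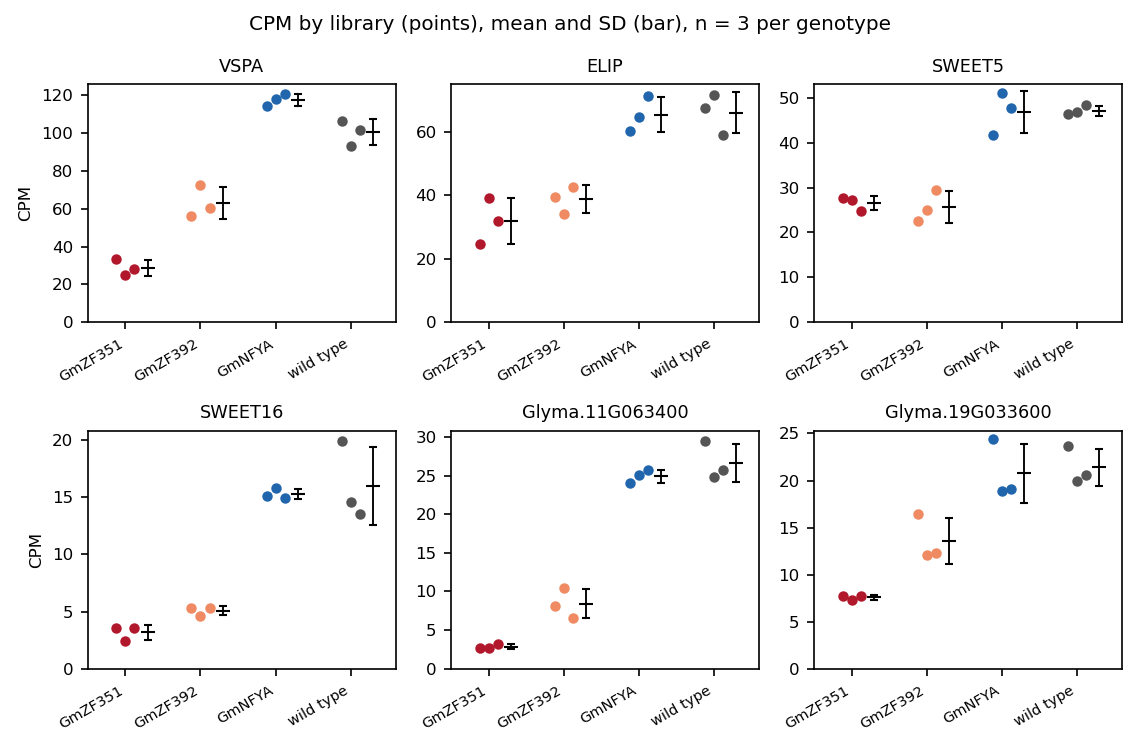
CPM of VSPA, ELIP, SWEET5, SWEET16, Glyma.11G063400 and Glyma.19G033600 by genotype; points are libraries, bars are the mean and SD of 3 libraries, and each panel has its own linear axis from 0. VSPA, SWEET16, Glyma.11G063400 and Glyma.19G033600 have all 3 GmZF351 libraries below all 3 GmZF392 libraries, whereas these groups overlap for ELIP and SWEET5 (means of 26.6 and 25.7 CPM for SWEET5).

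Among the other genes above 10 CPM in wild-type seeds, some overlapped between the 2 zinc finger genotypes and some did not. Glyma.15G081600 averaged 20.8 ± 1.9, 27.3 ± 4.7, 44.9 ± 4.7 and 42.3 ± 2.4 CPM in GmZF351, GmZF392, GmNFYA and wild-type seeds (SD, n = 3 each, the same groups and n in the next sentences). Glyma.03G113200 averaged 15.97 ± 3.7, 18.8 ± 2.4, 34.1 ± 1.1 and 29.0 ± 4.1 CPM, and its GmNFYA libraries were above all wild-type libraries. Glyma.06G307100 averaged 13.9 ± 3.7, 16.2 ± 3.7, 28.9 ± 1.6 and 27.4 ± 2.5 CPM. In these 3 genes the zinc finger groups overlapped.

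Glyma.19G008100 averaged 11.5 ± 0.5, 13.4 ± 1.9, 22.3 ± 2.4 and 25.6 ± 2.5 CPM in the same 4 groups. Glyma.14G000700 averaged 9.17 ± 0.44, 9.63 ± 0.82, 14.8 ± 1.4 and 17.9 ± 0.6 CPM. In both genes the zinc finger groups overlapped and all GmNFYA libraries were below all wild-type libraries. Glyma.13G139300 averaged 6.78 ± 0.75, 10.5 ± 0.7, 16.4 ± 2.0 and 17.2 ± 3.1 CPM, and its GmZF351 libraries were all below the GmZF392 libraries.

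A few genes marked the edge of the choice. The smallest of the 4 distances was 1.504-fold for Glyma.15G186100, 1.51-fold for Glyma.17G102700 and 1.51-fold for Glyma.01G108700. Just outside lay Glyma.17G012300 at 1.48-fold, Glyma.09G038500 at 1.48-fold and Glyma.09G080100 at 1.47-fold. The first of these outside genes was abundant, with means of 107 CPM in GmZF351, 118 CPM in GmZF392, 175 CPM in GmNFYA and 174 CPM in wild-type seeds. The lowest distance in GmZF351 seeds was that of Glyma.16G115566, whose means were 2.01, 1.77, 3.37 and 3.10 CPM in GmZF351, GmZF392, GmNFYA and wild-type seeds.

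A wild-type mean of 10 CPM or more was reached by 17 of the 38 genes, and libraries of a group differed more among the scarcer ones. Glyma.06G062500 had 0.33, 0.27 and 0.64 CPM in GmZF351 libraries, 0.35, 0.51 and 1.02 CPM in GmZF392 libraries, 4.84, 2.56 and 2.47 CPM in GmNFYA libraries and 4.26, 3.00 and 4.52 CPM in wild-type libraries. Its zinc finger groups overlapped, and the means lay 8.58-fold below the wild type in GmZF351 seeds and 5.87-fold below in GmZF392 seeds. Glyma.09G009700 averaged 0.66 ± 0.22, 0.81 ± 0.42, 3.35 ± 0.96 and 2.64 ± 0.81 CPM in GmZF351, GmZF392, GmNFYA and wild-type seeds.

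Glyma.09G000651 was the single gene whose GmZF392 libraries were all below its GmZF351 libraries. It had 4, 8 and 6 fragments in GmZF351 libraries, 1, 0 and 2 fragments in GmZF392 libraries, 50, 34 and 20 fragments in GmNFYA libraries and 87, 29 and 29 fragments in wild-type libraries. Replicate 1 of the wild type held most of the wild-type fragments. Summed counts relative to the library totals were 45.4-fold lower in GmZF392 than in wild-type seeds (95% exact interval 15.2 to 223) and 7.87-fold lower in GmZF351 than in wild-type seeds (4.81 to 13.7). The same ratio was 5.77-fold lower in GmZF392 than in GmZF351 seeds (1.68 to 30.6). The intervals around the fold values cover counting error only. Without replicate 1 of the wild type the first pair of values became 26.8-fold (8.72 to 134) and 4.65-fold (2.70 to 8.38), and the wild-type mean became 1.45 CPM, under the 2 CPM that the choice of genes asks for.

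Glyma.03G214600 averaged 4.49, 7.56, 12.9 and 12.6 CPM in GmZF351, GmZF392, GmNFYA and wild-type seeds, and Glyma.02G069100 averaged 3.79, 5.72, 10.4 and 9.97 CPM. Both had all GmZF351 libraries below all GmZF392 libraries, without a call, and the log2 fold change of Glyma.03G214600 in GmZF351 over GmZF392 seeds was -0.67 (SE 0.22, edgeR adjusted p = 0.348). Glyma.09G211500 averaged 3.59, 5.34, 9.11 and 10.9 CPM in the same groups. Glyma.11G134300, at 3.02, 2.17, 7.78 and 5.36 CPM, and Glyma.18G268300, at 5.14, 4.80, 10.4 and 8.87 CPM, had the zinc finger means in the opposite order. These 5 genes are named for completeness and were chosen after their values were seen. The 12 genes not named had wild-type means of 2.12 to 7.17 CPM and lay 1.70-fold to 3.04-fold below the wild type in GmZF351 seeds and 1.55-fold to 2.63-fold below in GmZF392 seeds.

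The choice set no condition on the difference between the 2 zinc finger genotypes, and that difference was tested gene by gene. The choice did use the same zinc finger libraries, through their means and through the lack of overlap with the others. Shares over all genes are therefore not a background matched to the 38 genes, and an excess over them was not tested. Of the 38 genes, 3 were called lower in GmZF351 than in GmZF392 seeds and 0 higher (edgeR adjusted p below 0.05). Among all 34252 tested genes, 0.356% were called lower and 0.0438% higher. The 3 genes are Glyma.11G063400, VSPA and Glyma.19G033600. The median log2 fold change was -0.20 over the 38 genes and -0.01 over all tested genes, and 10 of the 38 had an unadjusted p below 0.05 against 3290 of all. DESeq2 called 4 of the 38, these 3 and Glyma.01G178800.

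Glyma.11G063400 was lower in GmZF351 seeds, with a log2 fold change of -1.47 (SE 0.17, edgeR adjusted p = 7.8e-04), and VSPA likewise, with -1.05 (SE 0.13, adjusted p = 0.0017). Every GmZF351 library was below every GmZF392 library for both. Without replicate 2 of GmZF351 the values were -1.50 and -1.01, and the choice of genes gave 41, among them all 38. Over all alternatives their adjusted p reached at most 0.0385 and 0.0396. Glyma.19G033600 had a log2 fold change of -0.76 (SE 0.15, adjusted p = 0.049), at the edge of the threshold. Its adjusted p ranged from 0.00215 to 0.277 over the alternatives and was 0.0940 without replicate 2 of GmZF351, while the size of the change stayed between -0.86 and -0.60 with any of the 6 libraries left out.

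**Figure D5:**
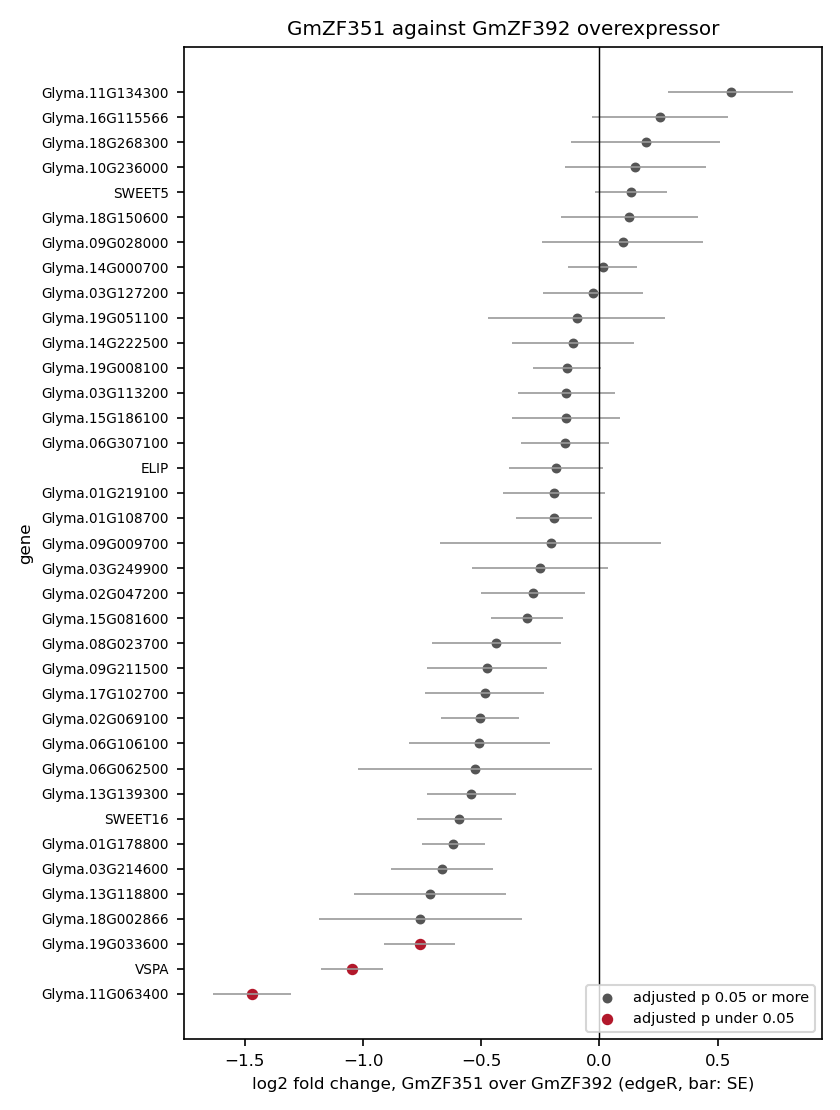
Log2 fold change of GmZF351 over GmZF392 seeds from edgeR for 37 of the 38 genes, ordered by size, with the standard error as a bar; red points have an adjusted p below 0.05. Glyma.09G000651, with 3 fragments in GmZF392 libraries, is left out. The red points are Glyma.11G063400, VSPA and Glyma.19G033600, all lower in GmZF351 seeds.

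Further genes leaned the same way without passing the threshold. Glyma.01G178800 had a log2 fold change of -0.62 (SE 0.13, edgeR adjusted p = 0.0829) and was called with DESeq2 (adjusted p = 0.0021) and with exon-length offsets (0.0361). SWEET16 had -0.59 (SE 0.18, adjusted p = 0.302), although its GmZF351 libraries were all below its GmZF392 libraries. ELIP had -0.18 (SE 0.20, adjusted p = 0.790) and SWEET5 0.13 (SE 0.15, adjusted p = 0.799), each within about its standard error of 0. The highest positive value among genes with more than a few fragments was 0.55 (SE 0.26, adjusted p = 0.530) for Glyma.11G134300, named here after its value was seen.

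By libraries rather than by test, 13 of the 38 genes (34.2%) had all GmZF351 libraries below all GmZF392 libraries, against 10.6% of all tested genes, and 1 (2.63%) had them all above, against 4.9%. These shares are a description, because the same libraries served to choose the 38 genes. The 13 genes include all 3 called genes, SWEET16, Glyma.01G178800, Glyma.13G139300 and Glyma.01G108700. In 24 genes the 2 genotypes overlapped. The GmZF351 mean was below the GmZF392 mean in 30 of 38 genes. That share was not counted over all tested genes, so nothing is read from it. Calls over all tested genes also leaned this way, with 122 lower and 15 higher in GmZF351 than in GmZF392 seeds.

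GmNFYA and wild-type seeds were held close by the choice of genes, so their closeness is a description. The ratio of their means ran from 0.733 in Glyma.09G000651 to 1.45 in Glyma.11G134300, with a median of 1.003, and GmNFYA was the higher in 19 of 38 genes. The test called 0 of the 38 genes in GmNFYA against wild-type seeds with edgeR, and 1 had an unadjusted p below 0.05; of all tested genes 1.56% were called. Their libraries did not overlap in 7 genes (18.4%), 4 higher and 3 lower in GmNFYA seeds, where the share of all tested genes was 21.1%.

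In position the 38 genes were scattered. They lie on 18 chromosomes, with 4 each on chromosomes 3, 6 and 9, and no member is the neighbour of another. The closest pair, Glyma.09G000651 and Glyma.09G009700, has 79 genes and 709767 bases between its members. Of the 38 genes 19 are on the plus strand. Their median exon length was 1674 bases and their median wild-type level 8.02 CPM, against 1942 bases and 16.03 CPM over all genes with a wild-type mean of at least 2 CPM.

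The 76 genes directly beside the 38 included 62 that were tested. Of these, 3 were called lower in GmZF351 than in wild-type seeds (4.84%), against 1.05% of all tested genes, and 2 in GmZF392 than in wild-type seeds (3.23%), against 0.528%. They were SWEET17 and Glyma.18G002932 in both comparisons and Glyma.13G118500 in GmZF351 seeds. In GmNFYA over wild-type seeds 2 neighbours were called lower (3.23%), SWEET4 and SWEET15, against 0.599% of all tested genes. Glyma.18G002932 starts at the base after the end of Glyma.18G002866 on the same strand. Glyma.18G002866, one of the 38, averaged 0.51 ± 0.26 CPM in GmZF351, 0.91 ± 0.14 CPM in GmZF392, 3.34 ± 1.25 CPM in GmNFYA and 2.78 ± 0.92 CPM in wild-type seeds. Its neighbour averaged 0.47 ± 0.22, 0.91 ± 0.30, 1.65 ± 0.28 and 2.51 ± 0.16 CPM in the same groups. The GmNFYA mean of the neighbour lay between those of GmZF392 and the wild type, whereas that of Glyma.18G002866 lay above the wild type. No spans of the 38 genes overlapped those of a neighbour.

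Of 13 lists of genes by symbol, the sugar transport list held SWEET5 and SWEET16, the list of vegetative storage protein and lipoxygenases held VSPA, and the other 11 held no member. Those 11 covered, among others, storage proteins, oil synthesis and oil bodies, flavonoids, heat shock proteins and transcription factor families. The storage protein list went the other way in all 3 overexpressors. Of its 17 tested genes, 8 were called higher in GmZF351, 8 in GmZF392 and 7 in GmNFYA over wild-type seeds, with median log2 fold changes of 1.001, 1.183 and 0.694. Over all tested genes 1.13% were called higher in GmZF351, 1.67% in GmZF392 and 0.966% in GmNFYA seeds. In the oil list 3 of 36 tested genes were called higher and 1 lower in GmZF351 seeds, and 2 were called higher in GmZF392 seeds.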

How the data were processed

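The authors deposited a single table of raw counts for paired-end fragments; per the file headers, exons were summed by gene in featureCounts 2.0.1 with the annotation Gmax_508_Wm82.a4.v1, for 12 seed libraries, together with exon lengths. The header's command sets nothing for strand, multimapped fragments or overlapping genes. HISAT2 and DESeq2 appear in the submitters' processing notes. Library totals ran from 17809547 to 22652420 counts.

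From these counts, CPM used column totals (pandas 2.3.3). Tests used edgeR 4.0.16 in R 4.3.3, with TMM factors, filterByExpr (minimum count 10, minimum total 15), robust quasi-likelihood F-tests, all 12 libraries in 1 fit and Benjamini-Hochberg adjustment over 34252 genes at 0.05. A seeded simulation of GmZF351 against GmZF392 on 33872 genes found 43 of the 99 genes given a 2-fold change and 88 of the 99 given a 4-fold change; 7 of 138 calls were unchanged genes. The simulated libraries carried no trend with exon length, unlike the real ones, so these rates need not hold for the real calls. An exact test of 3 against 3 libraries cannot go below p = 0.1.

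Symbols came from RefSeq genes of Glycine_max_v4.0 whose span shared 50% or more of the joint span with a gene (38253 genes paired, 2203 with a symbol; 35 of the 38 members paired, 4 with a symbol). Positions are those of the deposited table. No product names or sequences were used. The GmZF351 and GmZF392 loci rest on knowledge of the study and on their counts. Members, lists and tests were chosen with earlier results of these data known.

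Named by rule were members with a symbol, the 12 of highest wild-type CPM, members called in GmZF351 against GmZF392, the 5 lowest and 5 highest distances from the wild type (of the higher zinc finger mean), and the 3 genes on each side of the limit, 20 members in all. Alternatives were DESeq2 1.42.0, its size factors, no low-count filter, exon-length offsets (lowess span 0.3), a replicate block, only the compared groups, other limits and each library left out. No pair of replicates agreed within sampling noise (chi-square per gene 2.26 to 42.1).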

Additional observations from a re-analysis of the deposited data

Results flagged for a closer look

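For 3 of the 38 genes the 2 zinc finger overexpressors differed from each other by the edgeR test of that difference, although both were set against the same wild type. Glyma.11G063400 had a log2 fold change of -1.47 in GmZF351 over GmZF392 seeds. VSPA had -1.05, and Glyma.19G033600 had -0.76.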

How the results depend on the processing

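The call of Glyma.11G063400 and VSPA in GmZF351 against GmZF392 seeds held under all 12 alternatives, and that of Glyma.19G033600 was lost under 9 of them. Of the 38 genes, 5 were called with exon-length offsets, 4 with DESeq2, 2 with the replicate block and 2 to 3 with a library left out. Over all genes the count of 137 became 259 with exon-length offsets, 69 with only those groups in the fit, 359 with DESeq2, 117 with the replicate block and 64 to 112 with a library left out; the cause was not tested, beyond the fewer samples in the fit. Against the wild type, 27 of the 38 genes called in GmZF351 seeds became 31 with exon-length offsets and with DESeq2, 16 with only those groups, 25 with the replicate block and 16 to 22 with a library left out, and 19 in GmZF392 seeds became 25 with exon-length offsets, 26 with DESeq2, 14 with the replicate block and 9 to 13 with a library left out. The replicate numbers did not pair the libraries (correlations of deviations -0.50 to 0.42; 5 of 12 libraries correlated best with their own number). Of 238 results of named genes under alternatives, 216 kept their direction and side of the threshold and 11 changed sign, none of them called. These were Glyma.14G000700 with exon-length offsets (-0.13) and, with a library left out, ELIP (-0.44 to 0.0007), Glyma.03G113200 (-0.42 to 0.0111), Glyma.06G307100 (-0.32 to 0.0008), Glyma.14G000700 (-0.0643 to 0.0849), Glyma.15G186100 (-0.43 to 0.049), Glyma.06G062500 (-0.94 to 0.0509), Glyma.16G115566 (-0.0238 to 0.50) and Glyma.09G009700 (-0.52 to 0.22). The choice itself gave 38 genes with TMM-scaled CPM (35 shared), 39 with DESeq2 size factors (35 shared), 32 with 0.5 CPM added (31 shared), 26 at a wild-type minimum of 5 CPM and 52 with overlap allowed. With a library left out it gave 36 to 51 genes, 30 to 38 of them shared. Genes near 2 CPM rest on few fragments a library, which limits what could be called among them.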
